A study of Homo sapiens with 6 samples.

Results

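Hepatic drug uptake transporters were followed through 9 genes, chosen by symbol from the 58037 gene rows of the table: SLCO1B1, SLCO1B3, SLCO2B1, SLCO4C1, SLC22A3, SLC22A7, SLC22A9, SLC10A1 and SLC47A1. All 9 were found, each as 1 protein-coding row. They were read in differentiated HepaRG cells, a human hepatic cell line that the labels class as hepatocellular carcinoma and that differentiates in culture into hepatocyte-like and biliary-like cells. The 3 fatty acid samples were kept for 72 h with a 0.5 mM fatty acid mixture, 2 parts oleate to 1 part palmitate, carried on bovine serum albumin (0.02%). The 3 control samples received 0.02% albumin without fatty acid for 72 h. Cells of both groups, at passages 15 to 18, first went through 14 days of growth, 14 days of differentiation and 5 days in Williams E basal medium with insulin, hydrocortisone hemisuccinate, penicillin and streptomycin. The series title names the setting as a lipid-loaded model of steatosis and asks how drug-metabolizing enzymes and transporters are regulated in it. All samples come from 1 cell line, and no label says that replicates were separate cultures. The p-values therefore cover only the scatter among these libraries, part of which may be technical.

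Hepatocytes take drugs, hormones and bile acids from the blood through carriers of the sinusoidal membrane. The organic anion transporting polypeptides (SLCO genes) carry statins, bilirubin and steroid conjugates. The SLC22 family carries organic cations and anions, and SLC10A1 encodes NTCP, the sodium-coupled bile acid importer that is also the entry receptor of hepatitis B virus. SLC47A1 encodes MATE1, which is known as a proton-coupled exporter of organic cations into bile and urine, so 1 of the 9 genes works in the outward direction. Several of these genes are known to be driven in liver by nuclear receptors such as HNF4.

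Expression is given as FPKM, fragments scaled to gene length and to the assigned reads of the library. Library depth was 8364570, 14362728 and 15941353 reads in fatty acid replicates 1, 2 and 3, and 8964921, 6331372 and 11821423 reads in control replicates 1, 2 and 3. Mitochondrially encoded genes took 9.15% to 11.91% of reads in fatty acid libraries and 12.23% to 14.96% in control libraries. Group levels are given as mean ± SD in FPKM (n = 3 in each group). Log2 fold changes are fatty acid minus control on log2(FPKM + 0.5), ± SE, which understates the change of low genes, and a gene was called where its limma adjusted p (Benjamini-Hochberg over all genes tested) lay under 0.05. Coordinates are in GRCh38.

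Of the 9 transporter genes, 8 reached the mean of 0.5 FPKM required for testing, and 4 of these fell in fatty acid cells. SLC22A7, SLCO2B1 and SLC10A1 stood at 0.303, 0.363 and 0.324 of their control means, and SLC47A1 at 0.703 of it. SLC22A3, SLCO1B1, SLC22A9 and SLCO4C1 were not called, with fatty acid means of 0.701 to 0.802 of the control means. No transporter rose. Over all 14661 genes tested, 12.9% were called, 4.68% lower and 8.22% higher. A log2 fold change of -1 or lower was reached by 3 of the 8 transporters, against 0.962% of all genes tested. The median log2 fold change was -0.42 over the 8 tested transporters and 0.04 over all genes tested. Groups that did not overlap, with every fatty acid library below every control library, were found for 5 of the 8, against 13.3% of all genes tested. In bulk RNA, fewer hepatocyte-like cells and less RNA per cell cannot be told apart.

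**Figure D1:**
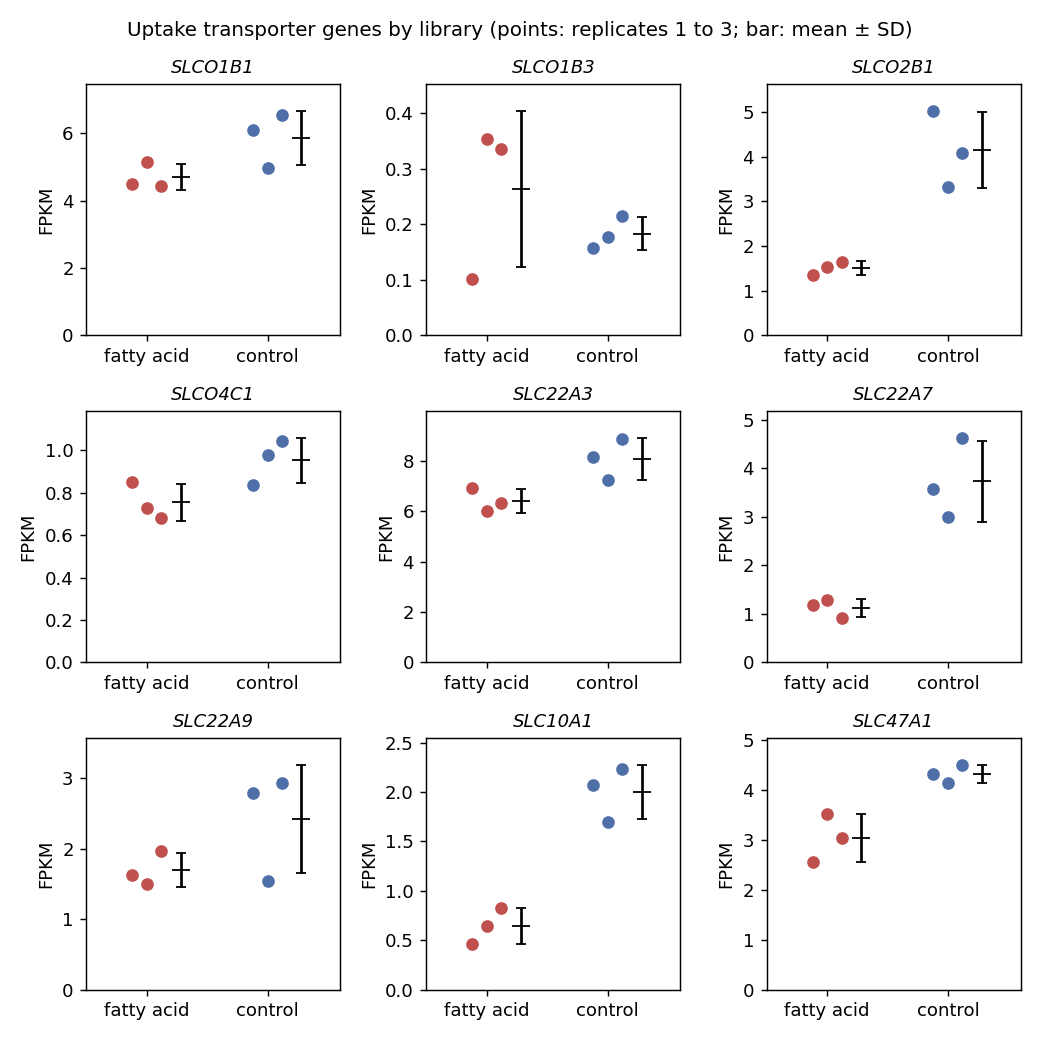
FPKM of each of the 9 transporter genes (vertical axis from 0) in the 3 fatty acid libraries (left) and the 3 control libraries (right); points run from replicate 1 to 3 and the bar gives mean ± SD. The 3 fatty acid points lie below all control points for SLCO2B1, SLC22A3, SLC22A7, SLC10A1 and SLC47A1, and the groups overlap for the other 4 genes.

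The OATP genes were split. SLCO2B1 (chromosome 11, 75100563 to 75206549), which encodes OATP2B1, a carrier of statins and steroid sulfates in liver and gut, had 1.34, 1.54 and 1.642 FPKM in fatty acid replicates 1, 2 and 3, against 5.033, 3.326 and 4.086 FPKM in control replicates 1, 2 and 3. Its highest fatty acid library thus lay below its lowest control library, with a log2 fold change of -1.20 ± 0.14 (limma adjusted p = 0.00311). As read counts these were 616 reads in the fatty acid libraries and 1185 in the control libraries, a depth-adjusted ratio of 0.365 (95% exact interval 0.33 to 0.402, counting error only).

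SLCO1B1 (chromosome 12, 21131202 to 21239246), which encodes OATP1B1, the main hepatic statin and bilirubin conjugate carrier, had 4.505, 5.154 and 4.447 FPKM in fatty acid libraries and 6.105, 4.96 and 6.528 FPKM in control libraries. The groups overlapped, since control replicate 2 lay below fatty acid replicate 2. The log2 fold change of -0.29 ± 0.11 was not called (limma adjusted p = 0.129), and it was called without control replicate 2 (limma adjusted p = 0.0443). Its read ratio was 0.784 (95% exact interval 0.679 to 0.906). SLCO4C1 (chromosome 5, 102233986 to 102296549), an OATP known chiefly from kidney, where it carries digoxin and thyroid hormone, had 0.852, 0.731 and 0.682 FPKM in fatty acid libraries and 0.836, 0.977 and 1.047 FPKM in control libraries. Fatty acid replicate 1 lay above control replicate 1, and the log2 fold change was -0.21 ± 0.14 (limma adjusted p = 0.349), with a read ratio of 0.767 (95% exact interval 0.605 to 0.972).

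SLCO1B3 (chromosome 12, 20810702 to 20916911) encodes OATP1B3, a close relative of OATP1B1, and lay below the minimum for testing. It had 0.101, 0.354 and 0.336 FPKM in fatty acid libraries and 0.157, 0.178 and 0.215 FPKM in control libraries. Those values rest on 3, 18 and 19 reads in the fatty acid libraries and 5, 4 and 9 reads in the control libraries. The libraries overlapped in both directions, the read ratio was 1.56 (95% exact interval 0.873 to 2.89), and an exact two-sided permutation test of 3 against 3, whose smallest p is 0.1, gave p = 0.4. A difference was not detectable at this depth. Fatty acid replicate 1 had the lowest and fatty acid replicate 2 the highest value of all 6 libraries.

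SLCO1B1 and SLCO1B3 lie near each other on chromosome 12, and their longest protein-coding transcripts were 86.7% identical over 2184 aligned bases, with a longest identical run of 48 bases. In the GENCODE v29 annotation of GRCh38, 54.5% of the exon bases of SLCO1B3 also belonged to exons of an overlapping protein-coding gene on the same strand, listed in the table as RP11-545J16.1, and 13.5% of those of SLCO1B1 to RP11-125O5.2. How reads in shared exons were counted is not stated by the sources at hand, so the level of SLCO1B3 may be understated. RP11-545J16.1 held 0, 1 and 1 reads in fatty acid libraries and 2, 0 and 5 in control libraries. Adding them left SLCO1B3 at 0.276 ± 0.152 FPKM in fatty acid libraries and 0.244 ± 0.0807 FPKM in control libraries. That sum cannot show how much is missing, since any reads in shared exons that were counted for neither gene stay out of it. The SLCO1B1 to SLCO1B3 ratio was 44.6, 14.6 and 13.2 in fatty acid libraries and 38.9, 27.9 and 30.4 in control libraries, and the groups overlapped.

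The windows from 250 bases before to 50 bases after the start of transcription (RefSeq, GRCh38.p14) are shown for the SLCO1B pair, whose levels differ widely although the windows are 82.8% identical over 261 aligned bases, and for the 3 genes that fell furthest. RefSeq windows matched 6 of the 9 genes, with 2 starts for SLCO2B1. Only the second SLCO2B1 window, which holds a motif match, is printed, and which start these cells use was not tested. SLC22A3, SLC22A9 and SLC47A1 are named only. Capitals mark matches on either strand to the motifs searched, and the sequences read 5′ to 3′ on the strand of the gene.
SLCO1B1, chr12:21130944-21131243, plus strand: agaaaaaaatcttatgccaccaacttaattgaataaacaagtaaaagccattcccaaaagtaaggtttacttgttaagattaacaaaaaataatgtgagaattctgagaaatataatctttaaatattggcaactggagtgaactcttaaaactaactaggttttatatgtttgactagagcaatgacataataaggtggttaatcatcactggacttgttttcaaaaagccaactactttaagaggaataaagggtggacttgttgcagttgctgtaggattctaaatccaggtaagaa
SLCO1B3, chr12:20810455-20810754, plus strand: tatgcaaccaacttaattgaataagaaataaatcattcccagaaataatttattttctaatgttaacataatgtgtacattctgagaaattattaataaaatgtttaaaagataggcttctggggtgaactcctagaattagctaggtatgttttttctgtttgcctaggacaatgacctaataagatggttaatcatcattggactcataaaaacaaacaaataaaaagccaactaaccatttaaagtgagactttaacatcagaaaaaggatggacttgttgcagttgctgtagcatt
SLCO2B1, chr11:75159582-75159881, plus strand: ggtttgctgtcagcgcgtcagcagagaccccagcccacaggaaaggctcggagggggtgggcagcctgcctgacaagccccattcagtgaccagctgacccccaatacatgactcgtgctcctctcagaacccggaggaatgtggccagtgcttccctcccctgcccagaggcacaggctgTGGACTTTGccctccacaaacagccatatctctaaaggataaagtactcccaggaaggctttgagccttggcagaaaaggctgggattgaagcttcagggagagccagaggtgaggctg
SLC22A7, chr6:43298010-43298309, plus strand: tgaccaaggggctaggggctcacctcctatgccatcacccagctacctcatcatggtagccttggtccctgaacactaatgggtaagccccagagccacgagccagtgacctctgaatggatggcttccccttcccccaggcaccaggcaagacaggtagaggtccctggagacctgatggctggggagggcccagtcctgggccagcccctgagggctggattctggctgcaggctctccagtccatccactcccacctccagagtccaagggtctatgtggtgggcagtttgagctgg
SLC10A1, chr14:69797192-69797491, minus strand: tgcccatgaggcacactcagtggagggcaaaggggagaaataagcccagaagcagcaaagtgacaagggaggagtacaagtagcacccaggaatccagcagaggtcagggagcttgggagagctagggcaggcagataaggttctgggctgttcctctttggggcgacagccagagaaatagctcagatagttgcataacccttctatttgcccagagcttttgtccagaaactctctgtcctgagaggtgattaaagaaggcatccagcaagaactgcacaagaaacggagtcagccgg

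The motifs were the HNF4 motif CAAAGTCCA, the direct repeat of the nuclear receptors (AGGTCA, any base, AGGTCA) and their inverted repeat (AGGTCA, any base, TGACCT), each on both strands. No motif holds another. The HNF4 letters stood on the minus strand at -69 in the second window of SLCO2B1, and in 0.384% of the 35116 promoter windows in the table. The direct repeat was in 0.023% and the inverted repeat in 0 of the 35116 windows, and neither was in a window of these genes. No motif matched in the first window of SLCO2B1 or in those of SLCO1B1, SLCO1B3, SLC22A7, SLC10A1 and SLCO4C1. Such matches describe letters and do not show binding.

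Among the organic ion carriers, SLC22A7 (chromosome 6, 43295694 to 43305538) had the largest change of the 8 tested transporters. It encodes OAT2, which carries organic anions, cyclic nucleotides and several drugs into hepatocytes. Its values were 1.186, 1.283 and 0.925 FPKM in fatty acid libraries and 3.574, 3.0 and 4.629 FPKM in control libraries. No fatty acid library came near the control range. This gave a log2 fold change of -1.36 ± 0.16 (limma adjusted p = 0.00275), from 152 reads in the fatty acid libraries and 373 in the control libraries, a ratio of 0.286 (95% exact interval 0.235 to 0.346). The protein-coding gene CRIP3, on the opposite strand, covers 4.2% of its exon bases and held 1, 17 and 14 reads in fatty acid libraries and 17, 7 and 20 in control libraries.

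SLC22A3 (chromosome 6, 160348268 to 160452581), which encodes the organic cation transporter OCT3, had the highest mean FPKM of the 9 genes in both groups. It had 6.927, 5.989 and 6.314 FPKM in fatty acid libraries and 8.163, 7.218 and 8.869 FPKM in control libraries. The groups did not overlap, though fatty acid replicate 1 and control replicate 2 lay close together. Its log2 fold change was -0.31 ± 0.09 (limma adjusted p = 0.0649) and its read ratio 0.767 (95% exact interval 0.694 to 0.848). It was called without control replicate 2 (0.041), with a minimum of 2 FPKM (0.0451) and with voom, limma's weighting for counts, on recovered reads (0.0193).

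SLC22A9 (chromosome 11, 63369789 to 63410294) encodes OAT7, a hepatic exchanger of sulfate conjugates. It had 1.62, 1.503 and 1.965 FPKM in fatty acid libraries and 2.786, 1.538 and 2.937 FPKM in control libraries. Control replicate 2 fell within the fatty acid range, and the other control libraries lay above it. The log2 fold change was -0.38 ± 0.21 (limma adjusted p = 0.254), and -0.62 without control replicate 2, when it was called (limma adjusted p = 0.0315). Over all libraries its read ratio was 0.671 (95% exact interval 0.536 to 0.841). Its neighbour SLC22A10 (chromosome 11, 63137867 to 63369718), a family member whose gene ends just before SLC22A9 begins, fell to 0.345 ± 0.128 FPKM in fatty acid cells, against 0.937 ± 0.151 FPKM in control cells (log2 fold change -0.77 ± 0.19, limma adjusted p = 0.0369). That call was lost without any 1 fatty acid replicate or control replicate 2 or 3 (0.0733 to 0.124), with no filter (0.0719) and with the replicate block (0.0528). SLC22A10 rests on 45 reads in fatty acid libraries and 82 in control libraries, and overlaps SLC22A25 on the other strand.

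The bile acid importer gene SLC10A1 (chromosome 14, 69775417 to 69797289) had 0.467, 0.646 and 0.827 FPKM in fatty acid libraries and 2.069, 1.696 and 2.229 FPKM in control libraries. Every fatty acid library was under every control library by a wide margin, and the log2 fold change was -1.13 ± 0.16 (limma adjusted p = 0.00617). The gene is low in these cells, and the values rest on 8, 19 and 27 reads in fatty acid libraries and 38, 22 and 54 in control libraries. Their depth-adjusted ratio was 0.332 (95% exact interval 0.236 to 0.463).

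The exporter gene SLC47A1 (chromosome 17, 19495385 to 19579034) had 2.55, 3.518 and 3.038 FPKM in fatty acid libraries and 4.31, 4.143 and 4.497 FPKM in control libraries. The groups did not overlap, and the control libraries were closer to each other than the fatty acid libraries were. The log2 fold change was -0.45 ± 0.11 (limma adjusted p = 0.0367). This call was the least stable of the 4. It was lost when fatty acid replicate 1 or 3 or any 1 control replicate was left out (limma adjusted p = 0.0606 to 0.114), with no filter (0.0935), after rescaling to TPM (0.0738), without the intensity trend (0.0597) and with the replicate block (0.0568). An antisense gene shares 3.5% of its exon bases and held 29, 56 and 63 reads in fatty acid libraries and 35, 24 and 37 in control libraries.

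**Figure D2:**
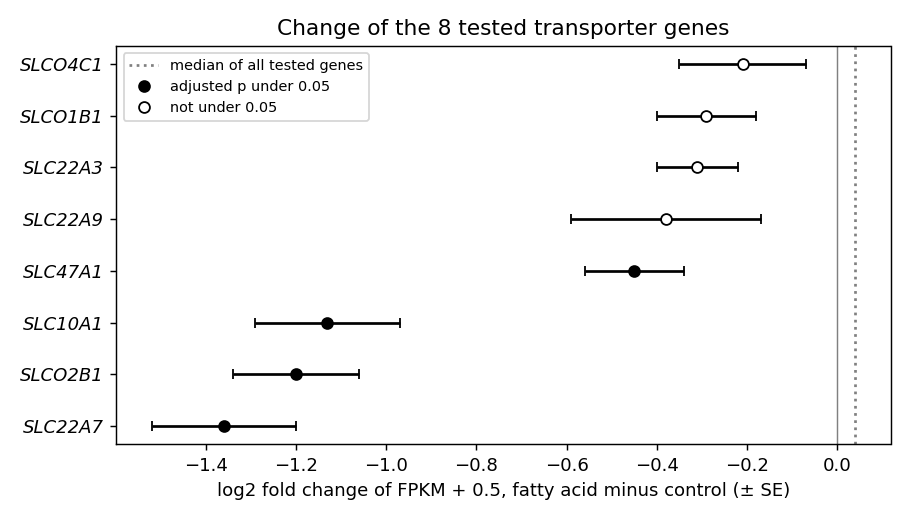
Log2 fold change of FPKM + 0.5, fatty acid minus control, with SE bars, for the 8 tested transporter genes; filled points had a limma adjusted p under 0.05. All 8 lie below 0, from -0.21 for SLCO4C1 to -1.36 for SLC22A7, while the dotted line marks the median of all tested genes at 0.04.

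The order of levels, per length, began with SLC22A3, SLCO1B1 and SLC47A1 in both groups. In fatty acid cells SLC22A9, SLCO2B1, SLC22A7, SLCO4C1, SLC10A1 and SLCO1B3 followed, and libraries of neighbours overlapped for SLC22A9 with SLCO2B1 and for SLCO4C1 with SLC10A1. In control cells SLCO2B1, SLC22A7, SLC22A9, SLC10A1, SLCO4C1 and SLCO1B3 followed, and neighbours overlapped for SLC47A1 with SLCO2B1, SLCO2B1 with SLC22A7, and SLC22A9 with SLC10A1. SLC22A3 lay at the 59.1 percentile and SLC10A1 at the 12.2 percentile of the 11979 protein-coding genes tested, by mean FPKM over the 6 libraries. This order depends on the gene lengths, which count all annotated exon bases, 10351 for SLCO2B1 and 3348 for SLC22A3. In reads, SLCO2B1 had 1185 in control libraries and 616 in fatty acid libraries, and SLC22A3 had 749 and 819. Which transcripts these cells use was not tested.

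Summed over the 9 genes, the level was 19.5 to 20.7 FPKM in fatty acid libraries and 27.0 to 35.0 FPKM in control libraries. The makeup of that sum, which rests on the same gene lengths, differed. SLC22A3 and SLCO1B1 supplied 31.8% and 23.3% of it in fatty acid cells, against 25.5% and 18.5% in control cells. SLCO2B1, SLC22A7 and SLC10A1 supplied 7.49%, 5.61% and 3.21% in fatty acid cells, against 13.1%, 11.8% and 6.31% in control cells. Control replicate 2 was the lowest control library for 7 of the 9 genes, whereas 35.1% of all tested genes had their lowest control value there. It was also the shallowest library, and the part of depth in this was not tested. Without it 6 transporters were called in place of 4, all lower. Over all genes tested, 677 were called lower and 933 higher without it, in place of 686 and 1205.

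**Figure D3:**
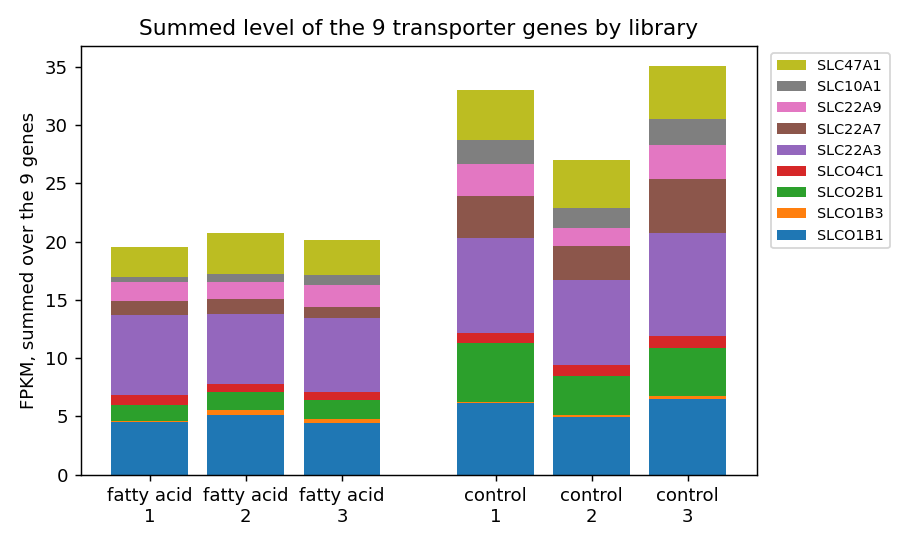
Summed FPKM of the 9 transporter genes (vertical axis from 0) in each library, fatty acid replicates 1 to 3 on the left and control replicates 1 to 3 on the right, with a colour for each gene. The fatty acid bars reach 19.5 to 20.7 FPKM and the control bars 27.0 to 35.0 FPKM, with control replicate 2 the lowest control bar.

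Most hepatocyte markers also fell. Of 20 hepatocyte markers, all tested, 13 fell and 5 rose (90.0% called, against 12.9% of all genes tested). Their summed level was 19800 to 20200 FPKM in fatty acid libraries and 24000 to 24400 FPKM in control libraries. Those that fell included CPS1, which starts the urea cycle, TTR, the thyroxine and retinol carrier of plasma, the iron carrier TF and the plasma glycoprotein gene AHSG, with log2 fold changes of -1.56, -1.27, -1.05 and -1.26 (limma adjusted p = 3.06e-05, 8.74e-05, 8.74e-05 and 0.000135). The 5 that rose, named for their small number, were FGA, FGB, FGG, HP and SERPINA1, which are known as acute-phase proteins. The number called higher was 3 without fatty acid replicate 1 or 2, with no filter and with quantile normalization. Of 12 biliary markers 6 were tested, CD24 fell and none rose, with a summed level of 427 to 443 FPKM in fatty acid libraries and 447 to 522 FPKM in control libraries, and EPCAM was at 0 reads. CD24 was not called after rescaling to TPM (limma adjusted p = 0.0513). KRT19 supplied most of the biliary sum, with 316 ± 9.49 FPKM in fatty acid cells and 343 ± 36.6 FPKM in control cells. Its groups overlapped and it was not called (limma adjusted p = 0.369). KRT7 lay the other way, at 1.59 times its control mean without overlap, and was not called (limma adjusted p = 0.0852). CLDN4, untested, was also higher without overlap, with 20 reads in fatty acid and 2 in control libraries. Of the 12 biliary markers, 3 lay lower and 2 higher without overlap. Of 10 mesenchymal markers 7 were tested and LUM rose, with sums of 119 to 126 FPKM in fatty acid libraries and 101 to 111 FPKM in control libraries, and THY1 was at 0 reads. LUM was not called without fatty acid replicate 1 (limma adjusted p = 0.0538). The collagen genes COL1A1 and COL3A1 lay the other way, at 0.526 and 0.806 of their control means without overlap, and were not called (limma adjusted p = 0.0655 and 0.06). Of 12 immune and endothelial markers 3 were tested and KDR fell, with sums of 40.2 to 41.6 FPKM in fatty acid libraries and 51.3 to 55.9 FPKM in control libraries, while CD3E and CDH5 were at 0 reads. KDR made up most of that sum, with 25.6 ± 0.972 FPKM in fatty acid cells and 40.7 ± 3.48 FPKM in control cells. The other tested markers, CD14 and LYZ, had 1.2 and 1.46 times their control means with overlapping groups, and PECAM1, untested, had 1.6 times without overlap. Shares called were 16.7%, 14.3% and 33.3% of the tested biliary, mesenchymal, and immune and endothelial markers. The part of a shift in cell makeup in the transporter result was not tested.

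Each transporter was therefore also expressed relative to hepatocyte genes. Divided by the summed hepatocyte markers, SLC22A7, SLC10A1 and SLCO2B1 had fatty acid means of 0.367, 0.392 and 0.44 of the control means, and their groups did not overlap. SLC47A1 and SLC22A9 had 0.85 each, SLCO1B1 0.97, SLC22A3 0.961 and SLCO4C1 0.959, and the groups of these 5 overlapped. The 5 markers that rose made up 48.3% of that divisor in fatty acid cells and 28.1% in control cells. Among the markers that fell, TAT, CPS1 and APOC3 had 0.283, 0.332 and 0.391 of their control means, about as low as the 0.303 to 0.363 of these 3 transporters, and each of the divisors used here fell less. TAT and APOC3, like KRT19, KRT7, CLDN4, the collagen genes, CD14, LYZ, PECAM1 and ABCC3 elsewhere, were named after their values were seen. With ALB, the albumin gene, as divisor, which had 7130 ± 306 FPKM in fatty acid cells and 12000 ± 318 FPKM in control cells, the first 3 genes had 0.512, 0.545 and 0.611 of the control ratio, again without overlap. On that scale SLCO1B1, SLCO4C1, SLC22A3 and SLC47A1 were above 1, at 1.35, 1.34, 1.34 and 1.18, with every fatty acid library above every control library, since ALB fell more than they did. For both groups of genes without overlap an exact two-sided permutation test of 3 against 3 gave p = 0.1, the smallest it can give. With HNF4A as divisor the first 3 genes had 0.434, 0.457 and 0.52 of the control ratio, and the others overlapped between groups.

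**Figure D4:**
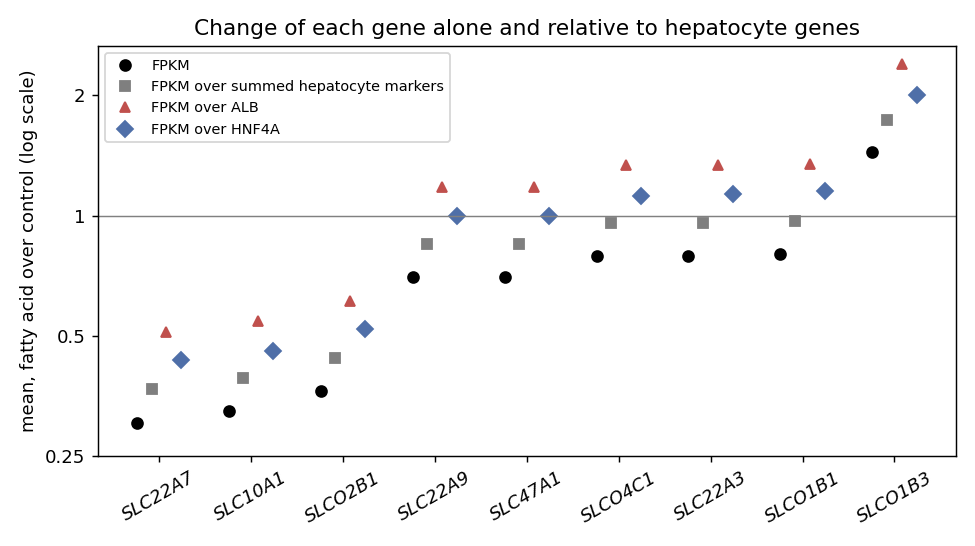
Mean of fatty acid libraries over mean of control libraries (log scale) for each of the 9 transporter genes, as FPKM and after division by summed hepatocyte markers, ALB or HNF4A. SLC22A7, SLC10A1 and SLCO2B1 lie at 0.303 to 0.611 on all 4 scales, while SLC22A9, SLC47A1, SLCO4C1, SLC22A3 and SLCO1B1 lie below 1 as FPKM and at or above 1.18 over ALB. SLCO1B3, whose groups overlap, lies above 1 on each scale.

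Related carriers gave a frame for these changes. They were the other 35 protein-coding genes whose symbols start with SLCO, SLC22A, SLC10A or SLC47A. The symbols also bring in SLC22A18AS, named as an antisense gene of SLC22A18, which was tested and not called (limma adjusted p = 0.149). Of the 35, 13 were tested, with a median log2 fold change of -0.05. Of the 35 genes 2 fell (15.4% called of those tested, against 12.9% of all genes tested) and none rose. The fall in their summed level was close to that of the 9 transporters, since they summed to 46.1 to 47.6 FPKM in fatty acid libraries and 61.5 to 79.7 FPKM in control libraries, a ratio of means of 0.679 beside 0.636 for the 9. SLC47A2, the MATE relative of SLC47A1, had 4.88 ± 0.311 FPKM in fatty acid cells and 5.09 ± 0.554 FPKM in control cells (limma adjusted p = 0.74). SLCO3A1, a widely expressed OATP, had 3.44 ± 0.193 FPKM in fatty acid cells and 2.93 ± 0.0302 FPKM in control cells (limma adjusted p = 0.13). Both were named after their values were seen. Of 27 other carriers of vitamins, nucleosides, peptides and small acids, 19 were tested, 1 fell and 3 rose (21.1% called). The one that fell was SLC23A1, a vitamin C transporter, with 2.04 ± 0.127 FPKM in fatty acid cells and 5.09 ± 0.732 FPKM in control cells (limma adjusted p = 0.00114). Those that rose were the monocarboxylate carriers SLC16A1 and SLC16A7 and the choline transporter SLC44A1, with log2 fold changes of 0.38 ± 0.06, 0.33 ± 0.08 and 0.32 ± 0.06 (limma adjusted p = 0.011, 0.041 and 0.0185). None of these 3 was called without fatty acid replicate 1 (0.0606 to 0.14) or 2 (0.0616 to 0.141), nor SLC44A1 and SLC16A7 without control replicate 3 (0.0548 and 0.0686). SLC16A7 was not called in 12 of its 17 alternatives.

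On the export side, 12 of 13 genes were tested, 4 fell and 1 rose (41.7% called, against 12.9% of all genes tested). Only 1 was called lower without any 1 fatty acid replicate, without control replicate 3 or with no filter, and 2 without the intensity trend. ABCC6, which acts in ATP release from liver, had 2.81 ± 0.166 FPKM in fatty acid cells and 4.7 ± 0.503 FPKM in control cells (limma adjusted p = 0.00691). The sterol exporter genes ABCG8 and ABCG5, whose products work as a pair, had 3.8 ± 0.273 and 0.418 ± 0.0305 FPKM in fatty acid cells and 7.33 ± 2.1 and 1.27 ± 0.399 FPKM in control cells (limma adjusted p = 0.0243 and 0.0279). ABCC4, a basolateral exporter of bile acids and nucleotides, rose to 4.23 ± 0.285 FPKM in fatty acid cells, against 2.83 ± 0.227 FPKM in control cells (limma adjusted p = 0.0135). Without fatty acid replicate 1 or 2 the calls of ABCG8, ABCG5 and ABCC4 were lost (0.0679 to 0.0978), as were those of ABCG8 and ABCG5 without fatty acid replicate 3 (0.0573 and 0.0751) or control replicate 3 (0.0607 and 0.0828), and that of ABCG5 without control replicate 1 (0.0645). ABCC3, which returns conjugates to the blood, completes the 4 that fell, with 46.9 ± 2.02 FPKM in fatty acid cells and 57.1 ± 3.61 FPKM in control cells (limma adjusted p = 0.0305), and was not called in 7 of 17 alternatives, with TPM at 0.219. ABCG2, an exporter of drugs and urate into bile, had 1.54 ± 0.113 FPKM in fatty acid cells and 1.55 ± 0.335 FPKM in control cells (limma adjusted p = 0.986) and was named after its values were seen. Of 22 transcription factors known to act on liver carrier genes, 19 were tested, 2 fell and 1 rose, a share called of 15.8% that is close to the 12.9% of all genes tested. NR1I2, the xenobiotic receptor PXR, had a log2 fold change of -0.93 ± 0.10 (limma adjusted p = 0.0022) and HNF4A of -0.49 ± 0.08 (0.00923). The call of HNF4A was lost when fatty acid replicate 1 (0.0547) or 2 (0.0527) was left out. NR5A2, a regulator of bile acid synthesis, rose with a log2 fold change of 0.56 ± 0.14 (limma adjusted p = 0.038), and was not called in 10 of 17 alternatives.

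The tested genes whose profile over the 6 libraries was most like that of SLC22A7 were ARG1, the arginase of the urea cycle, UGT1A9, a glucuronosyltransferase that shares exons with its UGT1A neighbours, and AHSG. Their root mean square differences from SLC22A7, on centred log2 values, were 0.115, 0.136 and 0.144. For SLCO2B1 they were SLC23A1, the peroxisomal oxidase gene HAO2 and the aldo-keto reductase gene AKR7A3, at 0.06, 0.083 and 0.094. The log2 fold changes of these 6 genes ran from -1.48 for ARG1 to -1.09 for AKR7A3. Values near those of SLC22A7 and SLCO2B1 follow from the choice of these genes by likeness over the same libraries.

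**Figure D5:**
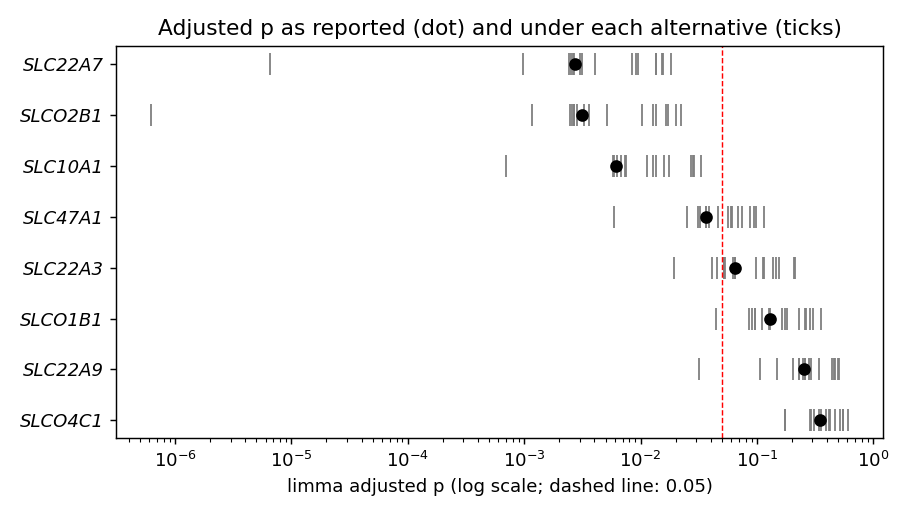
Limma adjusted p (log scale) of the 8 tested transporter genes as reported (dots) and under each alternative setting or left-out library (ticks), with the threshold of 0.05 dashed. SLC22A7, SLCO2B1 and SLC10A1 stay under 0.05 in every alternative that tested them, SLC47A1, SLC22A3, SLCO1B1 and SLC22A9 lie on both sides, and SLCO4C1 is never under it.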

How the data were processed

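Per the labels' protocols, 100 ng of RNA went into a stranded mRNA library kit. STAR 2.5.2, Subread 1.5.1 with featureCounts, and build GRCh38 are listed in the submitters' processing notes. The strand setting and annotation of the counting are not given in the sources used here. The authors deposited 1 table of FPKM values for 58037 genes and 6 libraries, with each gene's position and length per the file headers. FPKM times length stepped in whole reads for 99.986% to 100% of values printed finely enough (tolerance 0.02 reads), which gave the depth and the reads. Intervals of read ratios are exact at 95%.

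Groups and replicate numbers came from the titles. On log2(FPKM + 0.5), limma 3.58.1 (R 4.3.3, intensity trend, no covariate, Benjamini-Hochberg adjustment) compared the groups for every gene averaging 0.5 FPKM or more. The fit was first run on simulated data. Their spread between replicates was set to the same value for every gene, so they do not give the error rates in these libraries. Members, lists and the naming rule (all members, the up to 4 called genes of smallest p per list, the 3 nearest profiles of each of 2 members, overlapping genes) were chosen with earlier results of these data known. Not every gene fitting that rule is reported here, while the counts hold all of them. Sequences were compared with Biopython 1.88, and figures drawn with matplotlib 3.10.9. Alternatives were other pseudocounts, filters, scalings and variance models, the replicate block, voom on recovered reads and each library left out.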

Additional observations from a re-analysis of the deposited data

How the results depend on the processing

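The falls of SLC22A7, SLCO2B1 and SLC10A1 were called under each of the 17, 17 and 16 alternatives that tested them, with log2 fold changes of -1.78 to -1.14, -1.44 to -1.03 and -1.59 to -0.87. SLC47A1 was called in 8 of 17. All 8 tested transporters stayed below 0 in every alternative run. Transporters called lower numbered 3 to 6 with 1 library left out, 5 with voom, and 3 with no filter, TPM, no intensity trend or the replicate block, and none was called higher. Same-numbered libraries did not deviate together (r = 0.01, 0.08 and 0.02), so the numbers were not treated as pairs; with the replicate block SLC47A1 was not called (adjusted p = 0.0568), and 657 genes were lower and 817 higher. Over all genes, 686 were lower and 1205 higher as reported. No filter gave 337 lower and 640 higher, TPM 408 and 2615 with the median of all genes at 0.18, and voom 1153 and 1846. Median-of-ratios scaling gave 818 lower and 779 higher, quantile normalization 772 and 758, scaling to nuclear reads 835 and 710, and no intensity trend 459 and 642. With 1 library left out, lower calls ran from 232 to 677 and higher calls from 230 to 1105. With ALB in place of summed hepatocyte markers, the ratios of SLCO1B1, SLCO4C1, SLC22A3 and SLC47A1 crossed to 1.35, 1.34, 1.34 and 1.18. A minimum of 2 FPKM left SLC10A1 and SLCO4C1 untested. The cause of these shifts was not tested. Depth limits SLCO1B3, with 40 reads in fatty acid and 18 in control libraries.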

Other observations

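SLC22A25, a further neighbour of SLC22A9 on chromosome 11 (63163776 to 63229652), lay below the minimum for testing and was named after its values were seen. It had 0.096, 0.074 and 0.117 FPKM in fatty acid libraries and 0.416, 0.631 and 0.676 FPKM in control libraries. Those values rest on 14 and 59 reads, a depth-adjusted ratio of 0.166 (95% exact interval 0.0858 to 0.302, counting error only). It lies within SLC22A10 on the opposite strand. SLC27A5, the bile acid coenzyme A ligase, was also untested, with 47 reads in fatty acid libraries and 91 in control libraries. That was a ratio of 0.362 (95% exact interval 0.249 to 0.521), and the groups did not overlap. Of the 27 other carriers, to which SLC27A5 belongs, 8 lay lower and 6 higher without overlap. The basolateral bile acid exporter genes SLC51A and SLC51B were near absent at this depth, with 5 and 8 reads in fatty acid libraries and 5 and 5 in control libraries. SLC27A5, SLC51A and SLC51B were also named after their values were seen.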
